A study of Mus musculus with 40 samples.

Results

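The Ugt1a locus of the mouse encodes UDP-glucuronosyltransferases, and its transcripts were followed here in the kidney cortex of diabetic Akita mice and their WT littermates. The members are the 8 rows of the count table with the symbols Ugt1a1, Ugt1a2, Ugt1a5, Ugt1a6a, Ugt1a6b, Ugt1a7c, Ugt1a9 and Ugt1a10, of 55401 gene rows in all. The members were chosen by their higher levels, in several of these rows, in Akita than in WT mice on the ethanol vehicle. That difference is therefore given as a description only. The genotypes are tested within the 3 other treatments, whose 30 libraries played no part in that difference. The members and the gene lists were chosen with earlier results of these data known. These tests may therefore not be independent of that choice. The comparisons of MitoGamide with its vehicle use the ethanol libraries too and are also a description only. A further row, Ugt1a8, was outside the rule.

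UDP-glucuronosyltransferases are membrane enzymes of the endoplasmic reticulum that transfer glucuronic acid from UDP-glucuronate to bilirubin, steroids, fatty acids, drugs and other small molecules, so that these become more soluble and can be excreted. The Ugt1a genes are an unusual family in that each has its own promoter and its own first exon, which encodes the part of the enzyme that binds the substrate, whereas the later exons, which encode the part that binds UDP-glucuronate, are common to all. Kidney tubules carry out glucuronidation alongside the liver and the intestine, and receptors and factors such as the aryl hydrocarbon receptor, NRF2, PXR, CAR, PPAR-alpha and HNF1 are known regulators of the locus.

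RNA was sequenced from the renal cortex of 40 male C57BL/6J mice, 1 library a mouse, in 8 groups of 5. Akita mice were heterozygous for Ins2-Akita, a mutation of 1 insulin gene that causes diabetes by loss of insulin from the pancreas, and all were diabetic. WT mice were their non-diabetic littermates. In the ethanol arm, Akita and WT mice received ethanol at 10% in water as vehicle or MitoGamide, a mitochondria-targeted compound made to trap reactive dicarbonyls, at 10 mg/kg by daily gavage from 6 to 22 weeks of age. In the water arm, Akita and WT mice received water or MitoQ, a mitochondria-targeted antioxidant. The dose of MitoQ is not given in the sources used here, and the protocol text that carries the ages describes the ethanol arm only. Both arms differ in vehicle and in library quality, which cannot be told apart, and levels were not tested between arms.

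The libraries held between 9106654 and 24321424 estimated counts. The share of counts on protein-coding genes was between 60.3% and 70.7% in the ethanol arm and between 27.1% and 73.5% in the water arm, where 4 libraries were under 50% (Akita on water replicates 2 and 5, WT on water replicate 3 and WT on MitoQ replicate 3). On MitoGamide it was 60.9% to 63.7% in Akita and 62.4% to 70.3% in WT mice. On the ethanol vehicle it was 60.3% to 68.1% in Akita and 67.4% to 70.7% in WT mice. It was 36.7% to 65.4% and 47.0% to 73.5% on water, and 53.4% to 64.3% and 27.1% to 64.8% on MitoQ. The part of library quality in the differences between genotypes was not tested, beyond fits without these 4 libraries, which are given at the end. The 8 proximal tubule markers summed to between 7440 and 15421 CPM (counts scaled to a common library size, with TMM factors over all 40 libraries), and intestinal markers summed to at most 0.581 CPM. The replicate 1 library of WT mice on water stood apart in its 5 liver markers (among them Alb, albumin), which summed to 426 CPM, against between 11.3 and 65.0 CPM in the other 39 libraries. This library also had the highest Ugt1a1, Ugt1a2 and Ugt1a9 of all WT libraries. Log2 fold changes of these members between the genotypes, on water and over 3 treatments, are given with and without it where they could be fitted. Shares on water are given with it included. The part of liver RNA in these values was not tested.

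All members lie on the plus strand of chromosome 1 (GRCm38). The coding first exons start, in the order of transcription, at 88055411 for Ugt1a10, 88070800 for Ugt1a9, 88095064 for Ugt1a7c, 88106862 for Ugt1a6b, 88138378 for Ugt1a6a, 88166012 for Ugt1a5, 88200601 for Ugt1a2 and 88211959 for Ugt1a1. Each is spliced to exon 2 at chr1:88215044-88215175, which is followed by 3 more shared exons. To show what sets the members apart in the reads, the last 20 bases of each first exon are printed with the first 20 bases of exon 2, the latter in capitals:
Ugt1a10: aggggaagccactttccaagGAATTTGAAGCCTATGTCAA
Ugt1a9: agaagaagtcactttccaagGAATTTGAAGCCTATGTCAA
Ugt1a7c: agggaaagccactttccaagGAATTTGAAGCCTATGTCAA
Ugt1a6b: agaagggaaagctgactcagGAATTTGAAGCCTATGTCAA
Ugt1a6a: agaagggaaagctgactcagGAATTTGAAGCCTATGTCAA
Ugt1a5: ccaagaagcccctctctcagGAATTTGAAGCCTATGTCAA
Ugt1a2: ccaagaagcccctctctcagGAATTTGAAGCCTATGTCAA
Ugt1a1: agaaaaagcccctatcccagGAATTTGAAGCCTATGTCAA
The 20 bases before the junction are the same in Ugt1a2 and Ugt1a5, and also in Ugt1a6a and Ugt1a6b, and the exon 2 part is the same in all 8.

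A read from the shared exons cannot be assigned to a member, and the authors' counting divides such reads among the members by the reads that are specific to each. How much of a first exon is specific therefore bears on each level. Of the 31-base words of the first exon, 100% were found in no other transcript for Ugt1a1, 92.0% for Ugt1a7c, 87.5% for both Ugt1a2 and Ugt1a5, 79.7% for Ugt1a9, 59.2% for Ugt1a10, 41.0% for Ugt1a6b and 5.41% for Ugt1a6a. The first exons of Ugt1a9 and Ugt1a10 were 86.9% identical, and those of Ugt1a6a and Ugt1a6b were 94.9% identical. The row named Ugt1a7c has a further limit. In GENCODE release 21, 2 of the 17 transcripts of the members reach the last 998 bases of the locus (chr1:88219005-88220002), and both belong to the gene model of Ugt1a7c. One of these carries, after an upstream exon, a coding exon that a model of Ugt1a6a also has (chr1:88138473-88139331). It lies within the first exon of Ugt1a6a that starts at 88138378. The row named Ugt1a7c can thus hold reads from the common 3' end of any member and from Ugt1a6a, and it is not a measure of the first exon of Ugt1a7c alone. The authors mapped to release 25, whose models were not used here.

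**Figure D1:**
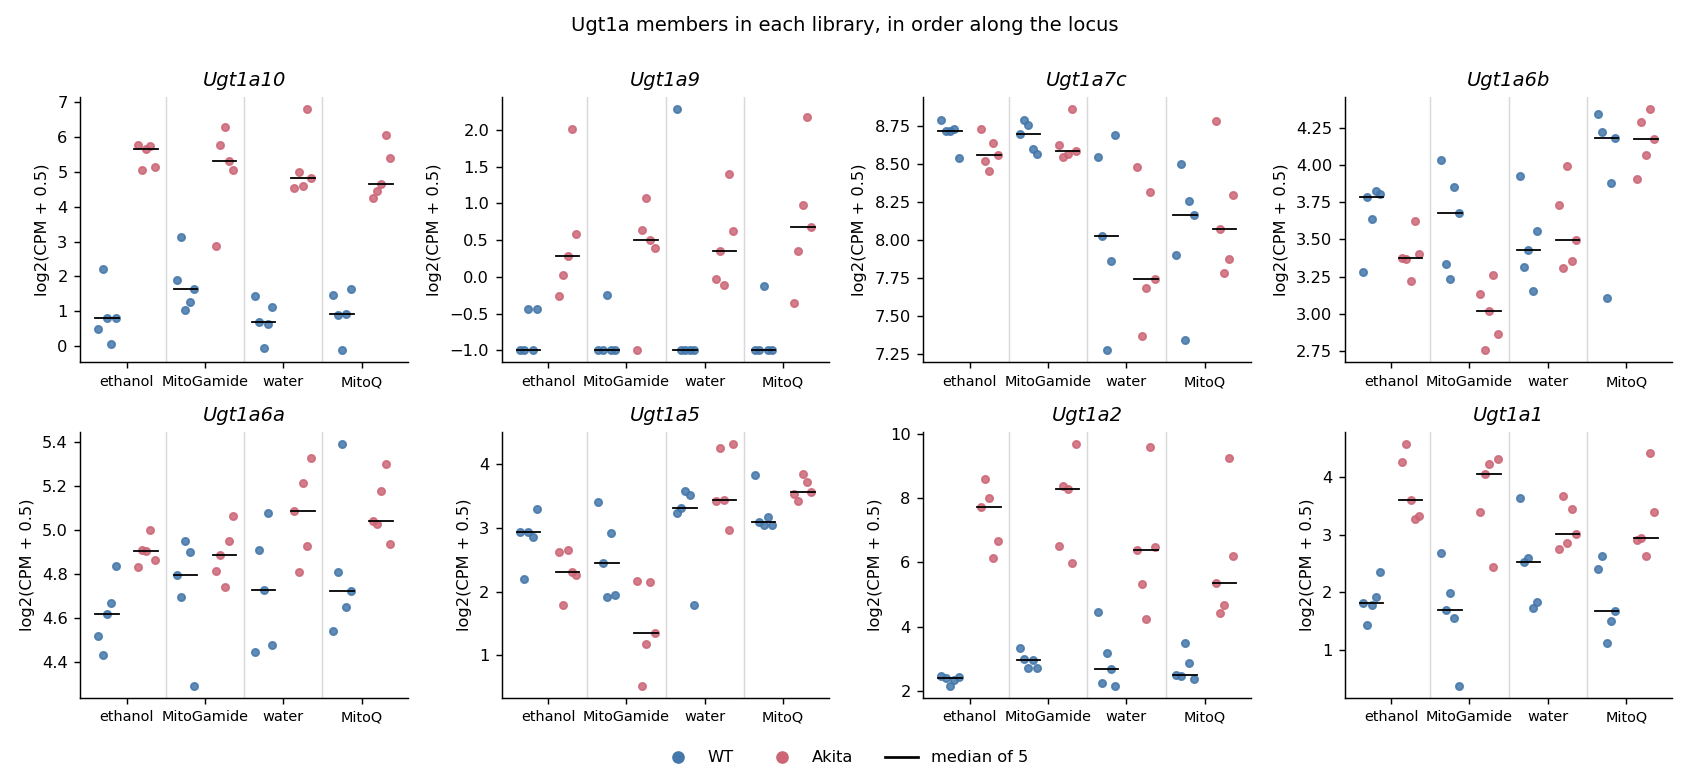
Level of each member in each library as log2(CPM + 0.5), with the members in their order along the locus, 1 point a mouse, WT and Akita side by side within each treatment, and a bar at the median of 5. Ugt1a10 and Ugt1a2 are set apart by genotype in every treatment except for single mice, whereas the row named Ugt1a7c is not.

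Ugt1a10, whose first exon is the farthest from the shared exons, was low in WT and higher in Akita mice. On the ethanol vehicle, it was at 53.7, 32.5, 49.9, 53.5 and 35.2 CPM in Akita mice and at 0.895, 4.12, 1.24, 0.543 and 1.25 CPM in WT mice. All 5 Akita mice were above all 5 WT mice, with a log2 fold change of 4.78, or 5.46 without WT replicate 2, the highest of the WT mice. Of the 8 members, Ugt1a1, Ugt1a2 and Ugt1a10 were separated in this way on ethanol, in the contrast that chose the locus. Of all genes, 5.92% were. Ugt1a9 was also without overlap, but its lowest Akita mouse was at 0.332 CPM and its highest WT mouse at 0.241 CPM. It had 7 to 78 counts in Akita mice and 0 to 6 in WT mice. Ugt1a9 thus reached the mean count needed for a test only through the Akita mice, and it is described only.

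On water, Ugt1a10 was at 22.8, 31.2, 23.5, 112 and 28.0 CPM in Akita mice and at 2.23, 1.10, 0.465, 1.04 and 1.67 CPM in WT mice. The groups did not overlap, although replicate 4 of the Akita mice was far above the others. The log2 fold change was 5.08 ± 0.58 (SE, n = 5 and 5, adjusted p = 0.00315, edgeR quasi-likelihood test), and without this mouse it was 4.34 (adjusted p = 0.000895). Of the 8 members tested on water, Ugt1a10 was the only 1 that passed the test, against 0.552% of all genes tested, and the only 1 without overlap, against 0.912% of genes that were higher without overlap.

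On MitoGamide, Ugt1a10 was at 6.80, 54.5, 78.6, 39.1 and 32.6 CPM in Akita mice and at 3.20, 8.22, 1.56, 1.88 and 2.63 CPM in WT mice. Here the lowest Akita mouse was within the WT range and the other 4 were above it. The log2 fold change was 3.67 ± 0.59 (adjusted p = 0.00268). On MitoQ, it was at 18.6, 21.3, 24.5, 66.4 and 41.5 CPM in Akita mice and at 2.27, 1.36, 0.416, 1.37 and 2.64 CPM in WT mice, without overlap, and the log2 fold change was 4.25 ± 0.43 (adjusted p = 0.000938). Ugt1a10 thus passed the test in each of the 3 treatments that did not choose it, and it did so in each of these with any 1 library left out.

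Ugt1a2 reached the highest levels of the members that rose, and its level differed widely from mouse to mouse. On the ethanol vehicle, Ugt1a2 was at 209, 389, 258, 69.5 and 99.8 CPM in Akita mice and at 5.05, 4.8, 3.98, 4.53 and 4.93 CPM in WT mice, with a log2 fold change of 5.47. The WT mice lay close together, and each Akita mouse was above them.

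On MitoGamide, Ugt1a2 was at 90.6, 330.5, 312, 62.8 and 817 CPM in Akita mice and at 9.59, 7.49, 6.05, 7.26 and 6.11 CPM in WT mice. The groups did not overlap, and the log2 fold change was 5.47 ± 0.65 (adjusted p = 0.000543), or 4.78 (adjusted p = 7.98e-05) without replicate 5 of the Akita mice. On water, the Akita mice were at 82.2, 39.7, 18.4, 774 and 87.9 CPM and the WT mice at 21.6, 4.21, 8.48, 5.92 and 3.97 CPM. The lowest Akita mouse was under the highest WT mouse, which is the library with the liver markers. The log2 fold change on water was 4.52 ± 1.02 and did not pass the test (adjusted p = 0.0931). Without that WT library it was 5.18 (adjusted p = 0.131), and without replicate 4 of the Akita mice it was 2.70 (adjusted p = 0.114). With DESeq2 it was 4.52 (adjusted p = 0.000521).

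On MitoQ, Ugt1a2 was at 40.8, 21.1, 24.8, 609 and 72.5 CPM in Akita mice and at 5.16, 4.96, 10.6, 6.86 and 4.66 CPM in WT mice. All Akita mice were above all WT mice, and 1 was far above the other 4. The log2 fold change was 4.59 ± 0.95 and did not pass the test (adjusted p = 0.0551), but without replicate 4 of the Akita mice it was 2.68 with an adjusted p of 0.00996. Over the 20 Akita mice, Ugt1a2 differed 44.5-fold between the lowest and the highest mouse, against 16.5-fold for Ugt1a10, 4.73-fold for Ugt1a1 and 1.51-fold for Ugt1a6a. The value for Ugt1a10 rests on replicate 1 on MitoGamide at 6.80 CPM, since the next lowest mouse was at 18.6 CPM.

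The 3 libraries with the highest Ugt1a2 were Akita mice on MitoGamide (replicate 5), on water (replicate 4) and on MitoQ (replicate 4). Their shares of protein-coding counts were 63.7%, 62.6% and 58.1%, and their liver markers summed to 26.3, 38.2 and 13.9 CPM, within the range of the other libraries. Urothelial markers summed to 9.47 CPM in the second of these, where the median of the Akita mice on water was 1.88 CPM, and to 0.164 and 0.994 CPM in the others, while another Akita library on MitoQ held 9.72 CPM of these markers. The part of these cells in the level of Ugt1a2 was not tested. In bulk tissue, more cells that express a gene and more RNA per cell cannot be told apart.

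**Figure D2:**
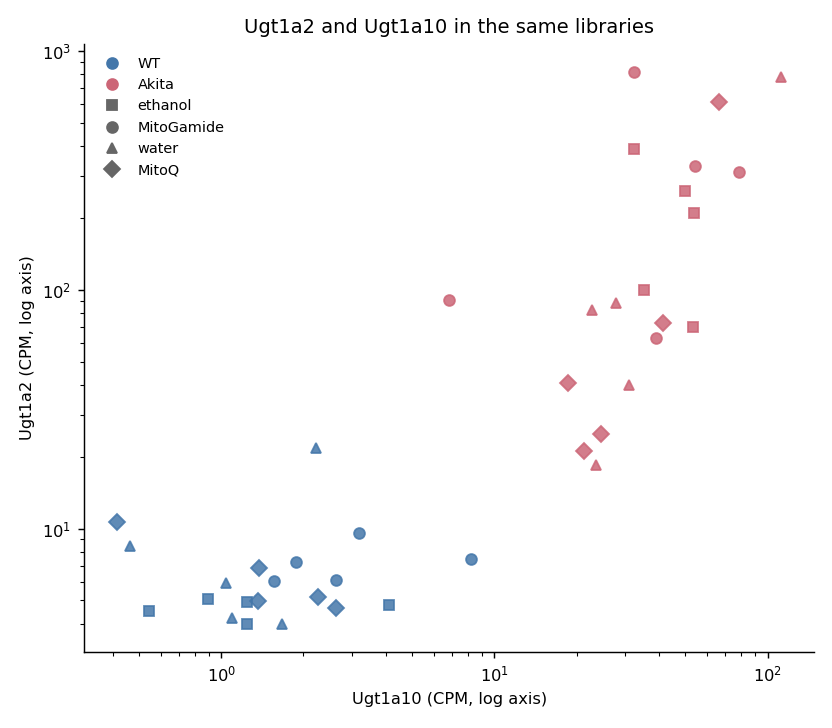
Ugt1a2 against Ugt1a10 in each of the 40 libraries, both in CPM on log axes, with colour for genotype and shape for treatment. WT mice lie at or below 21.6 CPM of Ugt1a2 and 8.22 CPM of Ugt1a10, and Akita mice reach 817 and 112 CPM.

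Ugt1a1, the enzyme that conjugates bilirubin, rose less. On MitoGamide, it was at 9.99, 16.1, 18.1, 4.92 and 19.4 CPM in Akita mice and at 5.93, 2.74, 3.47, 2.44 and 0.799 CPM in WT mice. One Akita mouse lay within the WT range, and the log2 fold change was 2.18 ± 0.45 (adjusted p = 0.00963). On the ethanol vehicle, it was at 18.7, 23.3, 11.6, 9.11 and 9.56 CPM in Akita mice and at 3.0, 2.19, 2.93, 3.26 and 4.60 CPM in WT mice, with a log2 fold change of 2.18.

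In the water arm, the difference in Ugt1a1 did not pass the test. On water, Ugt1a1 was at 6.26, 12.3, 6.75, 10.4 and 7.52 CPM in Akita mice and at 11.9, 5.24, 5.52, 2.80 and 3.04 CPM in WT mice. The groups overlapped, and the log2 fold change was 0.60 ± 0.37 (adjusted p = 0.881), or 1.06 (adjusted p = 0.281) without the WT library with the liver markers, which held the highest WT value. On MitoQ, Ugt1a1 was between 5.70 and 20.9 CPM in Akita mice and between 1.67 and 5.67 CPM in WT mice, without overlap, with a log2 fold change of 1.5 ± 0.39 (adjusted p = 0.142). With DESeq2 this difference was called (adjusted p = 0.0119).

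Ugt1a9, which neighbours Ugt1a10 and is most like it in sequence, was close to the detection limit. It had counts in 19 of 20 Akita libraries, from 5 to 78 where present, and in 5 of 20 WT libraries. On MitoQ, it was at 0.278, 0.780, 1.48, 4.04 and 1.10 CPM in Akita mice and was listed at 0 in 4 WT mice and at 0.416 CPM in the fifth. Only 1 Akita mouse was below that value. Ugt1a9 reached the mean of 10 counts needed for a test on MitoQ only through the Akita mice, so its log2 fold change of 5.20 ± 1.08, or 7.62 without the WT mouse that had counts, is given as a description, with no test. On water, Ugt1a9 had between 7 and 50 counts in Akita mice, and it was at 0 in 4 WT mice and at 61 counts in the WT library with the liver markers, so that the log2 fold change was 0.20 ± 1.23 (adjusted p = 1.00). Without that library, Ugt1a9 did not reach the mean needed on water. On MitoGamide, Ugt1a9 did not reach this mean either, with 0 to 29 counts in Akita mice and 0 to 5 in WT mice.

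The row named Ugt1a7c held most of the counts of the locus and was between 165 and 464 CPM in Akita mice and between 154 and 441 CPM in WT mice. Its log2 fold change was -0.18 ± 0.29 on water, -0.04 ± 0.09 on MitoGamide and 0.11 ± 0.24 on MitoQ (adjusted p = 1.00, 0.811 and 0.973). Ugt1a6a and Ugt1a6b, which conjugate phenols, are the pair whose reads are hardest to tell apart. Ugt1a6a was between 26.2 and 39.7 CPM in Akita mice and between 19.1 and 41.4 CPM in WT mice, with log2 fold changes of 0.34, 0.16 and 0.25 on water, MitoGamide and MitoQ, none past the test.

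Ugt1a6b was lower in Akita mice on MitoGamide. There, it was at 8.25, 6.25, 7.58, 9.07 and 6.79 CPM in Akita mice and at 15.9, 9.59, 8.90, 14.0 and 12.3 CPM in WT mice. The highest Akita mouse lay just above the lowest WT mouse, and the log2 fold change was -0.67 ± 0.17 (adjusted p = 0.0223). The call was lost when either Akita replicate 2, WT replicate 1 or WT replicate 4 was left out (adjusted p between 0.0560 and 0.0578). On water and on MitoQ, the log2 fold change was 0.10 ± 0.19 and 0.13 ± 0.19, neither past the test. Ugt1a5 was at 3.98, 0.940, 1.77, 3.94 and 2.04 CPM in Akita and at 10.1, 4.93, 3.26, 7.05 and 3.34 CPM in WT mice on MitoGamide, with a log2 fold change of -1.18 ± 0.41 (adjusted p = 0.0723). This difference in Ugt1a5 was called with DESeq2 (adjusted p = 0.0251), in the fit of all 40 libraries (0.0231) and with the replicate number as a block (0.0200). On water and MitoQ, Ugt1a5 had log2 fold changes of 0.58 ± 0.36 and 0.35 ± 0.18. On MitoGamide, therefore, 3 of the 7 tested members were higher and 1 was lower, against 14.3% of all genes called, 7.71% higher and 6.6% lower. On MitoQ, 1 of the 7 members other than Ugt1a9 was higher, against 0.265% of all genes called higher and 0.557% called in either direction. The 2386 genes called on MitoGamide fell to between 1248 and 1451 when Akita replicate 2 or WT replicate 1, 2, 3 or 4 was left out. Without overlap and higher were Ugt1a2 on MitoGamide, against 6.35% of genes, and Ugt1a1, Ugt1a2 and Ugt1a10 on MitoQ, against 1.49%.

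**Figure D3:**
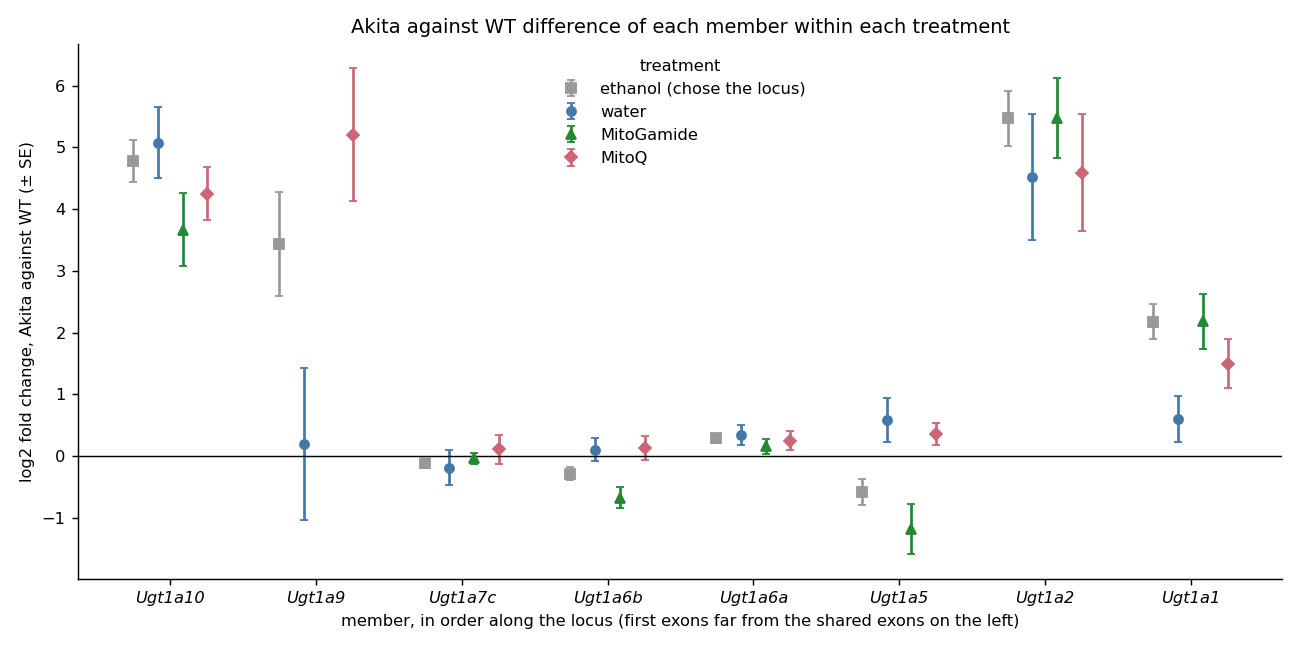
Log2 fold change of Akita against WT mice for each member within each treatment, with bars of 1 standard error, and the members in their order along the locus from the farthest first exon to the nearest. Ugt1a10 and Ugt1a2 lie between 3.67 and 5.47, and Ugt1a7c, Ugt1a6b, Ugt1a6a and Ugt1a5, which lie between them, are at or below 0.58. Ugt1a9, which also lies between them, was at 0.20 on water and at 5.20 on MitoQ, the latter a description only. It was not tested on MitoGamide.

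The 3 treatments that did not choose the locus were then fitted together, with treatment as a term, over 30 libraries. Ugt1a10 (log2 fold change 4.29 ± 0.36, adjusted p = 4.01e-10), Ugt1a2 (4.87 ± 0.57, adjusted p = 2.57e-07), Ugt1a1 (1.42 ± 0.28, adjusted p = 0.000557) and Ugt1a6a (0.26 ± 0.09, adjusted p = 0.0378) were higher in Akita mice. Thus 4 of the 7 members other than Ugt1a9 were called, against 13.5% of all 17778 genes tested, with 7.77% called higher and 5.71% lower. The calls of Ugt1a10, Ugt1a2 and Ugt1a1 held with each of the 30 libraries left out in turn. Without the WT library with the liver markers, Ugt1a2 was at 5.08 and Ugt1a1 at 1.59. The call of Ugt1a6a was near the threshold and held in 13 of these 30 fits, with a log2 fold change between 0.22 and 0.30 in all 30. Ugt1a9 reached the mean needed here through the Akita mice and is described only, at 2.14 ± 0.75, or 4.68 without the WT library with the liver markers. Ugt1a7c, Ugt1a6b and Ugt1a5 were at -0.02 ± 0.13, -0.12 ± 0.13 and -0.01 ± 0.24, and none of them passed the test.

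The members that rose are not neighbours as a block. Ugt1a10 is at the 5' end of the locus and Ugt1a2 and Ugt1a1 are at the 3' end next to the shared exons, whose gene models start 145.2 and 156.6 kb after that of Ugt1a10. Between them lie the rows named Ugt1a7c, Ugt1a6b, Ugt1a6a and Ugt1a5, of which Ugt1a6a was called, with a small difference. Ugt1a9 also lies between them and is described only, at 2.14, or 4.68 without the WT library with the liver markers. Because each first exon has its own promoter, the 250 bases before the RefSeq start (GRCm38.p6) of the members with the largest differences are printed, with matches of GTTAAT, a half-site of HNF1, on either strand in capitals:
Ugt1a10 (chr1:88055161-88055410, plus strand): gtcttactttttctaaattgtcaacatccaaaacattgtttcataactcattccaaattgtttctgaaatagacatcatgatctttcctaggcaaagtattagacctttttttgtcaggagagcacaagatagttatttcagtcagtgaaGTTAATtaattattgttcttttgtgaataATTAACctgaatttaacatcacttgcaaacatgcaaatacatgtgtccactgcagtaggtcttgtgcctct
Ugt1a9 (chr1:88070529-88070778, plus strand): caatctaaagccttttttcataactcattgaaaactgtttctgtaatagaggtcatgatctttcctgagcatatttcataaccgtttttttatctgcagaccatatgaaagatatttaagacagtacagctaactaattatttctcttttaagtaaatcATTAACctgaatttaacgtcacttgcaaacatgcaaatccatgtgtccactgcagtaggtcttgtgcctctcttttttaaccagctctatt
Ugt1a2 (chr1:88200361-88200610, plus strand): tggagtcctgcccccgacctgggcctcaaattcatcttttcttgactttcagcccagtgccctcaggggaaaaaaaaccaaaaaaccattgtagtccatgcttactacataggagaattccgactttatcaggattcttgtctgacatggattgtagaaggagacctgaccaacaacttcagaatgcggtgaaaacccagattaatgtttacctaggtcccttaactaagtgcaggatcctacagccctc
Ugt1a1 (chr1:88211709-88211958, plus strand): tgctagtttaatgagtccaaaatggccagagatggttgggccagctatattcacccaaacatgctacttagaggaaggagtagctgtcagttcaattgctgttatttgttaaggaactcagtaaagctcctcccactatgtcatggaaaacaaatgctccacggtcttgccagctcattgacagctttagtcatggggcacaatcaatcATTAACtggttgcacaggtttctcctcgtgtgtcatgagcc
This half-site was searched in both strands of these windows for the 7 members with a RefSeq entry. It was found at 2 places before Ugt1a10 and at 1 each before Ugt1a9, Ugt1a1 and Ugt1a6a, and not before Ugt1a2, Ugt1a5 and Ugt1a7c. Of 32851 promoter windows of the same length, 6.43% held it. The windows of Ugt1a10 and Ugt1a9 were 68.9% identical over their length. The core of the xenobiotic response element of the aryl hydrocarbon receptor, GCGTG, was present in 28.2% of all windows and, of the 7 members, in that of Ugt1a5. The core of the antioxidant response element, TGACNNNGC, was present in 10.2% of all windows and in none of the 7. The nuclear receptor half-site, AGGTCA, was present in 14.0% of all windows and in those of Ugt1a9 and Ugt1a7c. The TATA box, TATAAA, was present in 12.4% of all windows and in none of the 7. Matches are letters only, and no binding was measured.

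The summed counts of the 8 rows do not depend on how reads were divided among members. On the ethanol vehicle, the sum was at 749, 853, 714, 582 and 565 CPM in Akita mice and at 489, 468, 471, 478 and 432 CPM in WT mice, with a log2 fold change of 0.57. On MitoGamide, it was at 541, 811, 823, 616 and 1294 CPM in Akita mice and at 486, 499, 486, 449 and 422 CPM in WT mice. The groups did not overlap in either case. On MitoGamide the log2 fold change was 0.81 ± 0.20 (adjusted p = 0.0193), and 0.58 (adjusted p = 0.00931) without replicate 5 of the Akita mice. In the fit of all 40 libraries it did not pass the test (0.78, adjusted p = 0.0734).

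On water, the sum was at 524, 305, 317, 1264 and 408 CPM in Akita mice and at 458, 319, 217, 295 and 457 CPM in WT mice. Replicate 4 of the Akita mice was far above all others, and the rest overlapped. The log2 fold change was 0.70 ± 0.39 (adjusted p = 0.832) and 0.16 (adjusted p = 0.982) without that mouse. On MitoQ, the sum was at 565, 380.0, 342, 1006 and 498 CPM in Akita mice and at 306, 427, 232, 363 and 348 CPM in WT mice, with 2 of 5 Akita mice within the WT range and a log2 fold change of 0.72 ± 0.27 (adjusted p = 0.405), or 0.41 (adjusted p = 0.777) without replicate 4 of the Akita mice. Over the 3 treatments together, the summed counts were higher in Akita mice (0.75 ± 0.18, adjusted p = 0.00375), and this held with each library left out.

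Ugt1a2 made up a large part of the difference in the sum. On the ethanol vehicle, Akita mice had a mean sum of 692 ± 121 CPM and WT mice one of 468 ± 21.4 CPM (SD, n = 5 each), a difference of 225 CPM, of which Ugt1a2 made up 200.4 CPM, Ugt1a10 43.4 CPM and Ugt1a1 11.3 CPM, while the row named Ugt1a7c was lower by 32.2 CPM. The difference in the sum was 348 CPM on MitoGamide, 214 CPM on water and 223 CPM on MitoQ, and that in Ugt1a2 was 315, 192 and 147 CPM. Without replicate 5 on MitoGamide, the difference was 229 CPM in the sum and 192 CPM in Ugt1a2. Without replicate 4 on water, it was 39.0 and 48.2 CPM, and without replicate 4 on MitoQ, it was 111 and 33.3 CPM. The 5 members other than Ugt1a2, Ugt1a10 and Ugt1a1 together had means of 438 (Akita) and 455 CPM (WT) on MitoGamide, 311 and 333 CPM on water, and 360 and 324 CPM on MitoQ.

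**Figure D4:**
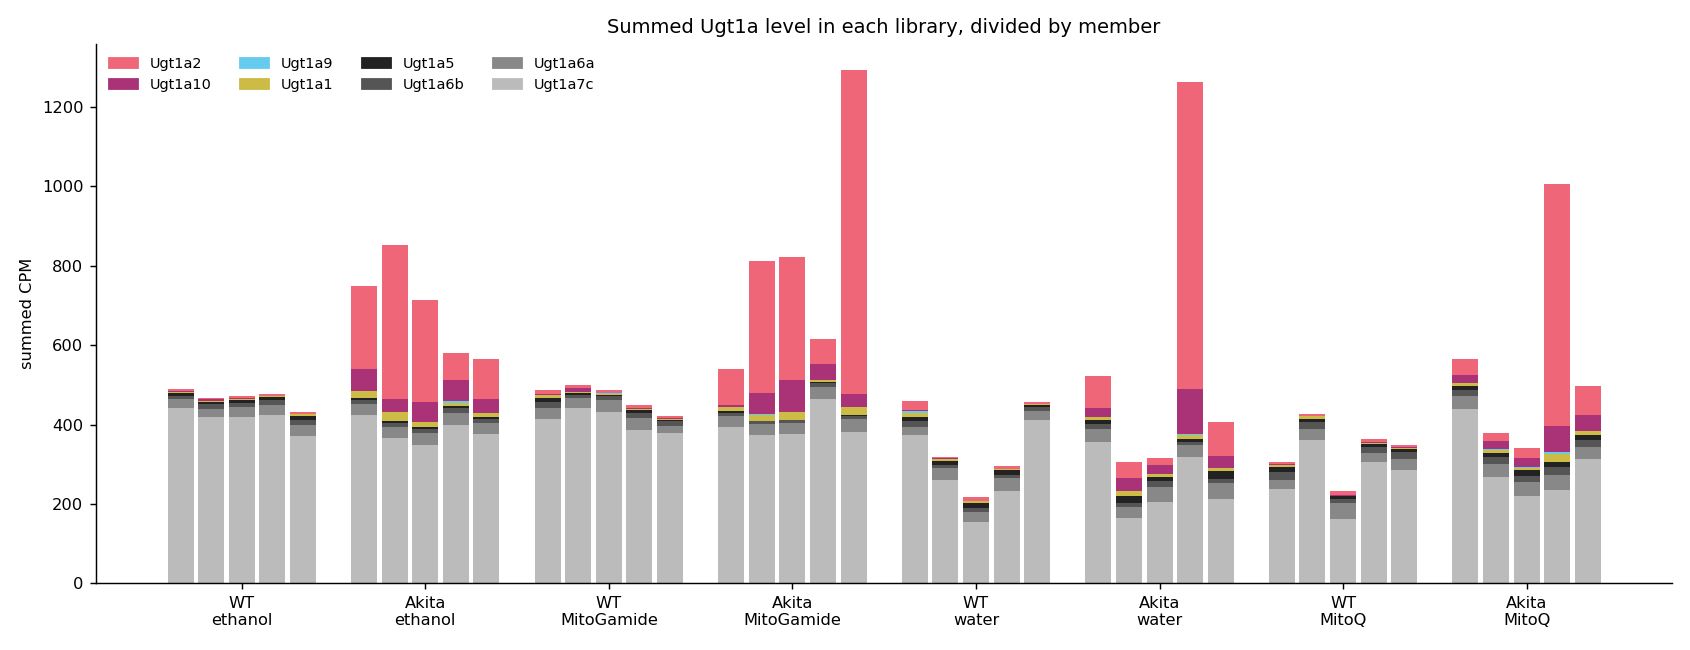
Summed CPM of the 8 rows in each of the 40 libraries, with each bar divided by member and the libraries of a group in order of replicate number. The 3 highest bars, at 1006, 1264 and 1294 CPM, are the Akita libraries in which Ugt1a2 reached 609, 774 and 817 CPM.

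Levels were also put on a scale per kilobase of transcript, on which the order of the members differed between the genotypes. The scale allows for length but not for how shared reads were divided, so the rows named Ugt1a7c, Ugt1a6a and Ugt1a6b, which can hold reads of other members, have no firm place in this order. In WT mice, the median over 20 libraries was 116 CPM per kb for the row named Ugt1a7c, 11.3 for Ugt1a6a, 5.68 for Ugt1a6b, 3.5 for Ugt1a5, 2.5 for Ugt1a2, 1.36 for Ugt1a1, 0.654 for Ugt1a10 and 0 for Ugt1a9. In Akita mice, it was 112 for Ugt1a7c, 40.4 for Ugt1a2, 15.1 for Ugt1a10, 13.4 for Ugt1a6a, 4.49 for Ugt1a1, 4.43 for Ugt1a6b, 2.97 for Ugt1a5 and 0.395 for Ugt1a9. These medians pool the treatments, and neighbours in the order can lie within each other's spread. By the medians of single groups, Ugt1a2 was above Ugt1a5 in WT mice on MitoGamide, it was above Ugt1a7c in Akita mice on MitoGamide, and in Akita mice on water and on MitoQ Ugt1a10 was below Ugt1a6a, and Ugt1a1 was below both Ugt1a6b and Ugt1a5.

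Each member's share of the summed counts was compared between genotypes within each of the 3 treatments by a two-sided exact permutation test. Adjustment ran over 24 tests, of which 13 passed. The 24 include Ugt1a9 in each treatment, and the 13 include Ugt1a9 on MitoQ. Its shares are described only and are not read as tests. The smallest p that 5 against 5 mice allow is 0.00794. Shares of 1 sum depend on each other, so a rise of 1 member lowers the shares of the rest. The share of Ugt1a10 was 7.55 ± 2.22% in Akita and 0.353 ± 0.0964% in WT mice on water (SD, n = 5 each, exact permutation test, adjusted p = 0.0238). It was 5.28 ± 3.36% against 0.734 ± 0.529% on MitoGamide (exact, adjusted p = 0.0317) and 6.2 ± 1.90% against 0.475 ± 0.260% on MitoQ (exact, adjusted p = 0.0238). The share of Ugt1a2 was 23.5 ± 21.9% against 2.57 ± 1.67% on water, 33.8 ± 21.1% against 1.56 ± 0.269% on MitoGamide and 19.0 ± 23.5% against 2.13 ± 1.39% on MitoQ, each with an adjusted p of 0.0238 by the exact test. The row named Ugt1a7c fell in share from 80.7 ± 6.77% to 52.9 ± 16.9% on water and from 87.6 ± 1.83% to 53.9 ± 19.6% on MitoGamide (exact, adjusted p = 0.0238 in both), and it was at 79.7 ± 6.21% in WT and 59.8 ± 21.3% in Akita mice on MitoQ (exact, adjusted p = 0.0635).

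Within the Akita mice, levels of some members went together. Pearson and Spearman correlations of log2(CPM + 0.5) were computed for 6 pairs over the 15 Akita mice that were not on the ethanol vehicle. Permutation p-values were adjusted over the 6 pairs, which include those with Ugt1a9. Mice were permuted across treatments and arms, so differences in level between these groups enter r and p. Values of r over all 20 Akita mice, which include those that chose the locus, are given as a description. The members share reads, which can tie their estimates to each other. Ugt1a2 and Ugt1a1, which are neighbours, had r = 0.771 (permutation, adjusted p = 0.00291) and rho = 0.721 (adjusted p = 0.0105), with r = 0.800 without the 2 mice farthest from the median of Ugt1a2, and r = 0.685 among the 10 mice of the water arm. The 5 mice on MitoGamide are too few for a value of their own. Over all 20 mice, r was 0.776, or 0.749 with the mean of each group subtracted, and it was 0.858 within the ethanol arm. Ugt1a10 and Ugt1a9 had r = 0.844 and rho = 0.857, with r = 0.744 without the 2 farthest mice and 0.798 in the water arm. Ugt1a9 had between 0 and 69 counts in these mice, so its pairs are described only and carry no test. Over all 20 mice, r was 0.714, or 0.763 with the mean of each group subtracted, and it was 0.695 within the ethanol arm.

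Ugt1a2 and Ugt1a10 had r = 0.623 (permutation, adjusted p = 0.0243) and rho = 0.589 (adjusted p = 0.0474), with r = 0.588 without the 2 farthest mice and 0.892 in the water arm. Over all 20 mice, r was 0.588, or 0.618 with the mean of each group subtracted, and it was 0.252 within the ethanol arm. In the water arm, replicate 4 on water and replicate 4 on MitoQ were the highest Akita mice in Ugt1a2, Ugt1a10 and Ugt1a9. The values of r in this arm can rest on these mice, and r without both was not computed. The arms were not compared by a test. Ugt1a10 and Ugt1a1 had r = 0.463, and Ugt1a2 and Ugt1a7c had r = 0.332, neither with an adjusted p under 0.05. Ugt1a2 and Ugt1a9 had r = 0.519, as a description.

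MitoGamide was compared with its ethanol vehicle within each genotype. This comparison uses the ethanol libraries of the contrast that chose the locus, so its values for the members carry no test. In Akita mice, the log2 fold changes were -0.07 ± 0.43 for Ugt1a10, 0.66 ± 0.63 for Ugt1a2, -0.07 ± 0.35 for Ugt1a1 and 0.24 ± 0.21 for the sum. Without replicate 5 on MitoGamide, Ugt1a2 was at -0.03 and the sum at 0.02. Ugt1a6b was at -0.41 ± 0.12 and Ugt1a5 at -0.88 ± 0.34. Over all genes, 1.26% were called in this comparison in edgeR. In WT mice, Ugt1a2 was at 0.65 ± 0.14 and Ugt1a10 at 1.07 ± 0.53, or 1.76 and 0.53 without replicate 2 on ethanol or on MitoGamide.

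MitoQ against water gave log2 fold changes of -0.38 ± 0.48 for Ugt1a10, -0.43 ± 1.10 for Ugt1a2, 0.20 ± 0.34 for Ugt1a1 and -0.04 ± 0.41 for the sum in Akita mice (adjusted p = 0.999 for each). Called were 0 of 8 members and 0% of all genes in Akita mice and 0 of 7 and 0% in WT mice, with 363 and 575 genes at an unadjusted p under 0.05 in edgeR, and 0 and 2 genes called by DESeq2. In WT mice, 18 genes were called in the fit of all 40 libraries. In Akita mice, 2 genes were called without the libraries under 50% protein-coding counts. Ugt1a6b was at 0.56 ± 0.15 in Akita and at 0.53 ± 0.22 in WT mice, with unadjusted p-values of 0.00298 and 0.0359 in edgeR and no call. The spread of Ugt1a2 limits this comparison, since its log2 fold change in Akita mice was 1.39 without replicate 4 on water and -2.36 without replicate 4 on MitoQ. That of Ugt1a10 was 0.35 and -0.75 without these mice, and that of the sum was 0.49 and -0.36.

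The interaction of genotype and MitoGamide subtracts the contrast that chose the locus and is a description only. It was -1.11 ± 0.76 for Ugt1a10 and 0.23 ± 0.23 for the sum on the log2 scale. For Ugt1a10 it was -1.80 without WT replicate 2 on ethanol and -0.58 without WT replicate 2 on MitoGamide. The interaction with MitoQ, which uses none of those libraries, was -0.81 ± 0.74 for Ugt1a10, 0.90 ± 0.57 for Ugt1a1 and 0.05 ± 1.33 for Ugt1a2 (adjusted p = 1 for each). For Ugt1a2 it was 1.88 without replicate 4 of the Akita mice on water and -1.86 without replicate 4 on MitoQ, so these data do not fix its sign, and for Ugt1a10 it was -0.07 without the former mouse. For Ugt1a1 it was 0.47 without replicate 4 of the Akita mice on MitoQ and 0.46 without the WT library with the liver markers. In this interaction, 0 members and 0% of all genes were called by edgeR, with 207 genes at an unadjusted p under 0.05 and 1 gene called by DESeq2.

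Other genes of the pathway are given from lists, by their counts in the fit over the 3 treatments, where the median log2 fold change of all genes was 0.00, with 7.77% of all genes called higher and 5.71% lower. The lists were chosen with earlier results of these data known, so their counts may not be independent of that choice. Genes whose mean count reached 10 in 1 genotype only are left out of these counts and described only. Of 7 other UDP-glucuronosyltransferases, 0 were higher and 2 were lower in Akita mice, with a median of -0.37. These were Ugt8a, which makes galactosylceramide (-0.75 ± 0.21, adjusted p = 0.0118), and Ugt2b38 (-0.71 ± 0.22, adjusted p = 0.0271). Ugt2a3, with a mean of 7.27 counts in Akita and 20.7 in WT mice, was at -1.62 ± 0.27. Of 8 genes that supply UDP-glucuronate or cleave glucuronides, 0 were higher and 1 was lower, with a median of -0.05. That 1 was Gusb, the lysosomal beta-glucuronidase (-0.59 ± 0.13, adjusted p = 0.00213), while Ugdh, which makes UDP-glucuronate, was at 0.19 ± 0.11 (adjusted p = 0.308). Of 6 genes that use glucuronate, Cryl1 was higher (0.44 ± 0.14, adjusted p = 0.0337) and Xylb was lower (-0.25 ± 0.07, adjusted p = 0.0139), and of 4 genes from heme to bilirubin none passed the test.

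Of 12 transporters of conjugates and bilirubin, 4 were higher and 3 were lower, with a median of -0.05. The export pumps Abcc4 (1.19 ± 0.14, adjusted p = 3.82e-07), Abcc3 (1.51 ± 0.21, adjusted p = 4.07e-06) and Abcc1 (0.46 ± 0.07, adjusted p = 3.12e-05) rose, and the uptake carrier Slco1a1 fell (-2.83 ± 0.42, adjusted p = 1.31e-05). Of 12 regulators, 1 was higher and 0 lower, with a median of 0.01. That 1 was Nfe2l2, which encodes NRF2 (0.24 ± 0.06, adjusted p = 0.00442). Nr1i3, which encodes CAR, had a mean of 14.7 counts in Akita and 6.67 in WT mice and was at 0.95 ± 0.29.

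Of 11 targets of NRF2, 4 were higher and 1 was lower, with a median of 0.33. Among them were the glutathione transferase Gsta2 (1.70 ± 0.15, adjusted p = 2.92e-09) and the quinone reductase Nqo1 (0.75 ± 0.13, adjusted p = 0.000148), which is also among the 4 tested targets of the aryl hydrocarbon receptor, of which 2 were higher. Gsta1, a related glutathione transferase, had a mean of 27.9 counts in Akita and 2.13 in WT mice and was at 3.32 ± 0.63. Of 11 targets of PPAR-alpha, 7 were higher and 1 was lower, with a median of 0.66, among them the fatty acid hydroxylases Cyp4a14 (3.68 ± 0.39, adjusted p = 5.96e-08) and Cyp4a10 (1.75 ± 0.22, adjusted p = 8.31e-07), with Cyp4a12a lower (-2.14 ± 0.33, adjusted p = 2.4e-05). Of 2 tested targets of PXR and CAR and of 8 tested neighbours of the locus on chromosome 1, none passed the test, and the medians were -0.01 and 0.00.

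**Figure D5:**
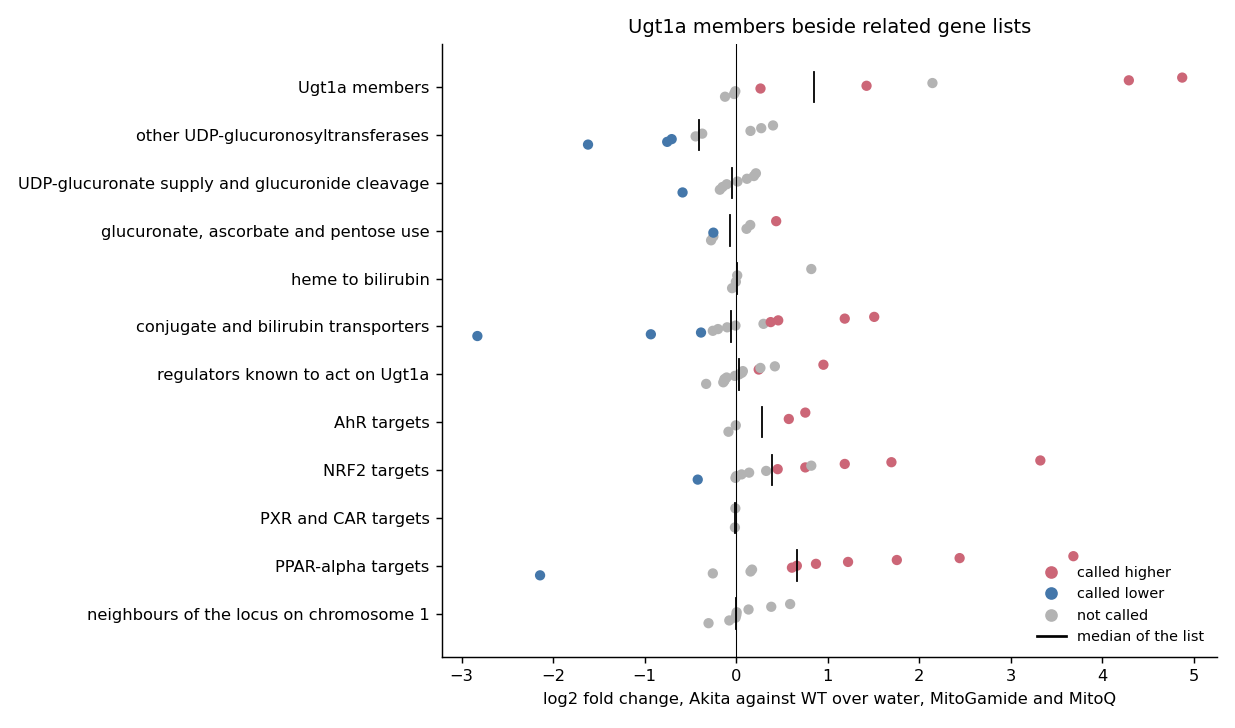
Log2 fold change of Akita against WT mice over water, MitoGamide and MitoQ for the members and for each gene list, with 1 point a gene, colour for the call and a bar at the median of all points of the list, among them Ugt2a3, Nr1i3, Gsta1 and Ugt1a9, whose mean count reached 10 in 1 genotype only and whose colour is not read as a call. Ugt1a2 and Ugt1a10, at 4.87 and 4.29, lie above all genes of the other lists, of which Cyp4a14 at 3.68 is the nearest.

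The genes whose level was most like that of Ugt1a10 over the 40 libraries, among 17761 genes, were Kynu (r = 0.934), Pdxk (r = 0.918), Ephx1 (r = 0.894) and Abcc3 (r = 0.890). These correlations hold the difference between genotypes, so genes with a like difference rank high. Kynu, the kynureninase of tryptophan breakdown, had medians between 34.3 and 38.9 CPM in the Akita groups and between 4.67 and 8.13 CPM in the WT groups. After the mean of each group was subtracted, the nearest genes were Nqo1 (r = 0.787), Esrp1 (r = 0.759), Slc7a12 (r = 0.750), Anxa4 (r = 0.717) and Hk1 (r = 0.701). For the summed counts, the kinase gene Pdk1 was first in both rankings (r = 0.934, and 0.901 after subtraction). These are descriptions over 40 libraries that share depth and library quality, and carry no test.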

How the data were processed

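Total RNA of the renal cortex was depleted of ribosomal RNA and sequenced with a directional kit. The deposited values are estimated counts per gene. Per the labels and methods, the authors trimmed reads, mapped them with kallisto 0.46.1 to transcripts of GENCODE mouse release 25 (GRCm38) and summed the transcripts of each gene, without scaling, filtering or pooling. kallisto divides reads of shared exons among transcripts, which sets the split between Ugt1a members, whereas their sum does not depend on it. The counts are whole numbers and were used as deposited, and the 40 columns were matched to samples by name. No 2 libraries were identical.

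Contrasts used only the libraries they compare, in R 4.3.3 with edgeR 4.0.16 (TMM, glmQLFit, glmQLFTest) for genes whose mean over those libraries reached 10 counts. Benjamini-Hochberg adjustment ran over all these genes, with calls at an adjusted p under 0.05. For the sum, 1 row replaced the 8 members. The standard error is the size of the log2 fold change over the square root of F. Single mice are the replicates. Shares and correlations were tested by permutation in Python with scipy 1.17.1 (100000 permutations for correlations). Positions come from GENCODE release 21, in which 99.5% of gene identifiers were found, and promoter windows from RefSeq. The scripts were tested on simulated data. Named genes are the 8 members, for each list those of the 4 with the smallest p in the fit over 3 treatments and any whose role the text needs, and the 5 genes most like Ugt1a10 and the sum, of which 1 is not reported here. The members and lists were chosen with earlier results of these data known. The alternatives were RLE factors, an open filter, a filter of 10 counts on each single library, DESeq2 1.42.0, 1 fit of all 40 libraries, a block for replicate number, Ugt1a8 added to the sum, each library left out in turn and, added after the data were examined, the 4 libraries under 50% protein-coding counts left out, mean differences without the Akita mouse highest in Ugt1a2, correlations without the ethanol mice, and list counts without genes whose mean reached 10 counts in 1 genotype only. Depth limits Ugt1a9, where a few counts make up the whole level.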

Additional observations from a re-analysis of the deposited data

Results flagged for a closer look

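In groups of 5 mice, 72 sets of values (the 8 members and their sum in 8 groups) were searched for a mouse set apart from the other 4 by a gap that took up most of the range (Dixon's 95% limit), and 15 were found (chance finds about 1 in 20 sets). The sets are not independent, since the sum holds Ugt1a2, and in 3 sets of Ugt1a9 the other 4 mice were at 0, where any count stands apart. Among Akita mice on water, replicate 4 stood apart in Ugt1a2 (774 CPM, others at most 87.9), in Ugt1a10 (112 CPM, others at most 31.2) and in the sum (1264 CPM, others at most 524). Among Akita mice on MitoQ, replicate 4 stood apart in Ugt1a2 (609 CPM, others at most 72.5) and Ugt1a1 (20.9 CPM, others at most 9.96). Akita replicate 4 stood apart in Ugt1a7c on MitoGamide (464 CPM, others at most 394) and in Ugt1a9 on ethanol (3.55 CPM, others at most 1.00).

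Among WT mice, replicate 1 on water, the library with the liver markers, stood apart in Ugt1a2 (21.6 CPM, others at most 8.48) and in Ugt1a9 (4.38 CPM, others at 0). WT replicate 2 stood apart in Ugt1a10 on ethanol (4.12 CPM, others at most 1.25) and on MitoGamide (8.22 CPM, others at most 3.20). On MitoQ, WT replicate 1 stood apart in Ugt1a5 (13.7 CPM, others at most 8.47), and replicate 3, the library with the lowest protein-coding share, in Ugt1a6a (41.4 CPM, others at most 27.5) and Ugt1a9 (0.416 CPM, others at 0). WT replicate 3 on MitoGamide stood apart in Ugt1a9 (0.34 CPM, others at 0).

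Ugt1a8, the row of the locus outside the rule, reached 65 counts in an Akita library and at most 5 in a WT library. It was above 0 in 16 of 20 Akita and in 3 of 20 WT libraries.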

How the results depend on the processing

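Of the log2 fold changes of the members and their sum, which are those run under the alternatives, none that passed its test changed direction, whereas some that did not pass changed sign, such as Ugt1a2 for MitoQ against water in Akita mice (1.39 and -2.36 without replicate 4 on water or on MitoQ). The summed counts on MitoGamide were at 0.78 (log2, adjusted p = 0.0734) with all 40 libraries fitted at once, past the threshold otherwise, and the cause was not tested. With a library left out in turn, the sum ranged from 0.58 to 0.92 on MitoGamide, from 0.59 to 0.80 over 3 treatments, from 0.16 to 0.85 on water, from 0.41 to 0.85 on MitoQ and from 0.48 to 0.63 on ethanol. Between 9 and 14 of 24 shares then passed, with those of Ugt1a9 among the 24. Replicate numbers did not pair the mice (correlations of same-numbered mice between -0.504 and 0.708, not all over 0.1 in any contrast). With the replicate number as a block, the sum was at 0.74 on MitoGamide (adjusted p = 0.0398) and 0.69 over 3 treatments (adjusted p = 0.00478), and genes called fell from 101 to 32 on water, from 101 to 48 on MitoQ and from 214 to 0 for MitoGamide in Akita mice.

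For Ugt1a6a over 3 treatments, the call was lost with RLE factors (adjusted p = 0.056), without a filter (0.0501) and with 10 counts in each library (0.0862). Ugt1a2 was called on water without a filter, with DESeq2 and in the fit of all libraries (adjusted p = 0.044, 0.000521 and 0.00191), and on MitoQ likewise (0.014, 0.000145 and 0.00289). Genes called with DESeq2, and in the fit of all libraries, were 354 and 547 on water, 415 and 308 on MitoQ, and 1069 and 32 for MitoGamide in Akita mice. With a library left out, they ranged from 32 to 94 on water, from 35 to 270 on MitoQ, from 1248 to 2822 for the genotypes on MitoGamide and from 0 to 802 for MitoGamide in Akita mice. Without the 4 libraries low in protein-coding counts, they were 8 on water and 270 on MitoQ. On ethanol, they were 2910, and 844 in the fit of all libraries. Over 3 treatments without these 4 libraries, Ugt1a10 was at 4.15, Ugt1a2 at 5.10, Ugt1a1 at 1.41 and the sum at 0.73 (log2). Their adjusted p-values in edgeR were 1.03e-08, 1.08e-06, 0.00217 and 0.00445. Depth limits Ugt1a9, and the authors' division of shared reads limits the split of the sum.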
